A study of Mus musculus with 6 samples.

Results

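Metallothioneins and the membrane transporters of zinc and copper were followed early after ischemia in kidney cells sorted by a reporter of intercalated cells. The genes were chosen by name. They are the metallothioneins Mt1 to Mt4, the zinc-sensing transcription factor Mtf1, all Slc30a (ZnT) and Slc39a (ZIP) zinc transporter genes and the copper transporters Slc31a1 and Slc31a2. The rule found 32 genes of 37583 in the table, namely 4 metallothioneins, Mtf1, 10 Slc30a genes, 15 Slc39a entries including the pseudogene Slc39a1-ps, and 2 Slc31a genes.

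Metallothioneins are small cysteine-rich proteins that bind zinc and copper and buffer their free concentration in the cytosol. ZnT proteins move zinc out of the cytosol, across the plasma membrane or into organelles, and ZIP proteins move it in. MTF1 is activated by zinc, binds metal response elements in DNA and is the known activator of Mt1, Mt2 and Slc30a1, while Slc39a10 is known to be repressed by it.

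The cells were EGFP-positive cells sorted in 2 rounds from the renal medulla of B1 VATPase EGFP transgenic mice aged 12 weeks, in which EGFP marks intercalated cells, the acid and base transporting cells of the collecting duct. All 6 samples carried this transgene. In 3 samples the mice had undergone ischemia-reperfusion injury (IRI), a stop and return of the renal blood supply, 2 h earlier, and in the 3 control samples a sham operation 2 h earlier. Each sample pooled 4 kidneys of 2 mice. The labels also name epididymis as the tissue and CX3CR1 as the gene that controls EGFP. The 10 epididymis markers summed to 8.39 to 13.5 CPM (counts scaled to library size) in sham and 4.63 to 10.1 in IRI. Most of this was the defensin gene Defb2, with 72 to 223 reads in each library, and Cst8 had 12 to 59 reads, while Cst11, Defb48, Lcn5 and Lcn8 had none in any sample. The 12 intercalated cell markers summed to 21660 to 28270 CPM in sham and 22960 to 27890 in IRI. The 9 markers of principal cells, the other main cell type of the collecting duct, summed to 12260 to 13670 and 6079 to 11830 CPM. Transcripts known from principal cells were thus abundant too. Libraries held 17421669 to 24245330 reads counted in genes. Whether the pools of a group came from separate experiments is not stated, and the p-values reflect only how far these pools differ. In such bulk samples, more or fewer cells of a type and more or less RNA per cell cannot be told apart.

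The DNA upstream of the members that MTF1 is known to act on is shown first, because these are the genes whose levels are compared below. The 200 bases before the annotated starts come from RefSeq on GRCm38.p6. Capitals mark the core of the metal response element, searched as TGCACNC and TGCGCNC on both strands.
Mt1 upstream, chr8:94178889-94179088, plus strand: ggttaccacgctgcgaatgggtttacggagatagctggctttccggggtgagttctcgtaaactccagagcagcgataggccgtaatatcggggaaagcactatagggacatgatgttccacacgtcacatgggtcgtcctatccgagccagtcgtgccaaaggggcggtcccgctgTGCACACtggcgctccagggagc
Mt2 upstream, chr8:94172418-94172617, plus strand: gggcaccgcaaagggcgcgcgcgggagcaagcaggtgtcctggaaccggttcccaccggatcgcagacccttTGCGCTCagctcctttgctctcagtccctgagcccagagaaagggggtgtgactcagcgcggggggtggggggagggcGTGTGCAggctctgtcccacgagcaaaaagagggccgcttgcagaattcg
Slc30a1 upstream, chr1:191906581-191906780, plus strand: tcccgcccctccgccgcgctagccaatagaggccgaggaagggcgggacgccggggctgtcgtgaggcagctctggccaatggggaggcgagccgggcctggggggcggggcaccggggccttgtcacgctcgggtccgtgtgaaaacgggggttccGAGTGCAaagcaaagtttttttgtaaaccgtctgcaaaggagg
The annotated starts of Mt1 and Mt2 lie before the TATAAA motif of each gene. In the GENCODE M21 transcript Mt1-201 the motif begins at base 129, and 4 cores come before it. In Mt2-201 it begins at base 90, after 3 cores. The 30-base stretch of each transcript with the most cores is shown here, again with the cores in capitals.
Mt1, bases 5 to 34 of Mt1-201: agctcTGCACTCcgcccgaaaagTGCGCTC
Mt2, bases 9 to 38 of Mt2-201: gggcGTGTGCAggcggcgggggcGCGTGCA
Of 58695 protein-coding transcripts, 15.2% held at least 1 core in their first 150 bases and 0.0545% held 4 or more. In Mt1 and Mt2 these bases include DNA before the TATAAA motif, which was not required of the other transcripts. The shares are thus no like comparison. Within the same length, Slc30a1-201 held 1 core, at base 45, and Slc39a10-201 held 0. In the 250 bases upstream of the annotated start, Mt1 held 1 core, Mt2 3 (the farthest lies before the stretch shown) and Slc30a1 1, and both annotated starts of Slc39a10 held 0. Over all 32851 RefSeq windows of this length, 21.4% held at least 1 core and 0.304% held 4 or more. The table matched 27 of the 32 members with 32 windows, of which 15 held a core. A core was present for 5 of the 8 matched members that were called higher in IRI, and for 5 of the 13 matched members with no call. The antioxidant response motif TGACNNNGC, on either strand, was found upstream of Mt2, Slc30a1, Slc31a2, Slc39a1, Slc39a5, Slc39a8 and Slc39a13, and in 10.2% of all windows. The STAT motif TTCNNNGAA, which reads the same on both strands, was found upstream of Slc39a10 and in 7.02% of all windows. These matches describe letters, and binding was not measured.

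The comparison asked how the RNA of these genes differed between IRI and sham cells. Of the 23 members tested, 9 were called higher in IRI: Mt1, Mt2, Mtf1, Slc30a1, Slc30a4, Slc30a7, Slc39a1, Slc39a8 and Slc39a14. None was called lower. Calls are adjusted p-values under 0.05 from edgeR's quasi-likelihood test with Benjamini-Hochberg adjustment over all 13881 genes tested, of which 24.2% were called higher and 21.2% lower. The members' share called higher was 39.1%, and their median log2 fold change was 0.386 against 0.000 for all genes tested. The members, and the lists used below, were chosen with earlier results of these data known. Such shares, also those by family, are thus no independent comparison. Every IRI sample lay above every sham sample for 10 tested members, against 29.2% of all genes tested. Every IRI sample lay below every sham sample for 2, against 27.2% of all genes tested. At an unadjusted p under 0.05, 3 members were lower (Slc30a9, Slc31a2 and Slc39a11), while DESeq2 called 1 lower (Slc39a11) and limma-voom and edgeR's exact test called 0. The count called lower differed between settings. With upper-quartile scaling, and also with library size alone, 8 members were called higher and 4 lower (Slc30a5, Slc30a9, Slc31a2 and Slc39a11). Without a filter on low counts 2 were called lower (Slc39a2 and Slc39a11), as were 2 without sham replicate 1 (Slc31a2 and Slc39a11). The other scalings moved the log2 fold changes of all genes tested by a median of -0.122 and -0.201.

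**Figure D1:**
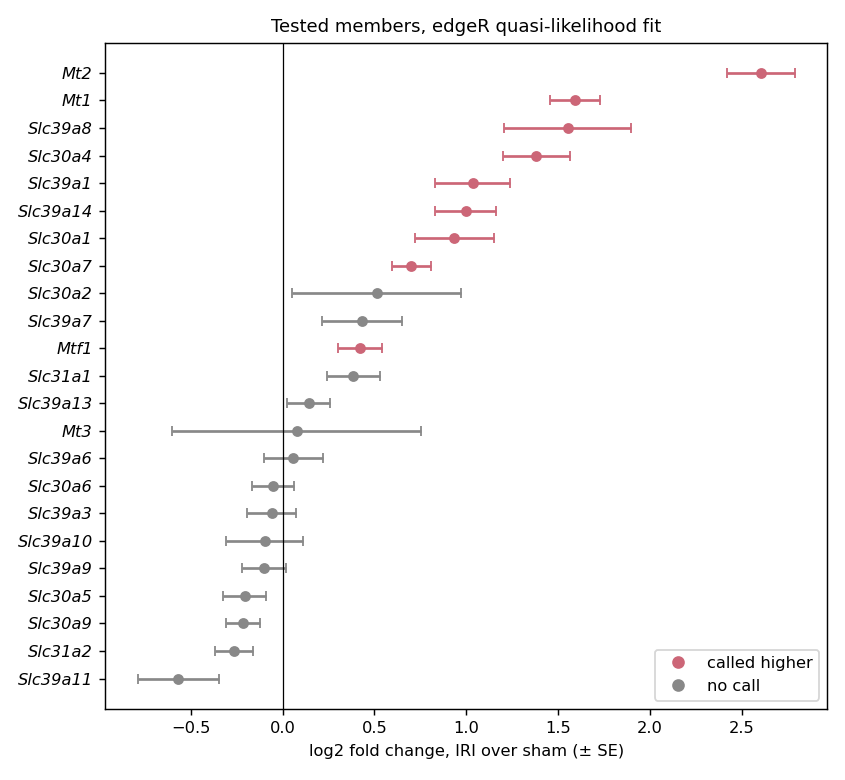
Fitted log2 fold change of IRI over sham for the 23 tested members, with bars of 1 standard error, ordered by size. The 9 members called higher are red and the 14 without a call grey. Mt2 stands at 2.61 and Mt1 at 1.59, and Slc39a11 is lowest at -0.57.

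**Figure D2:**
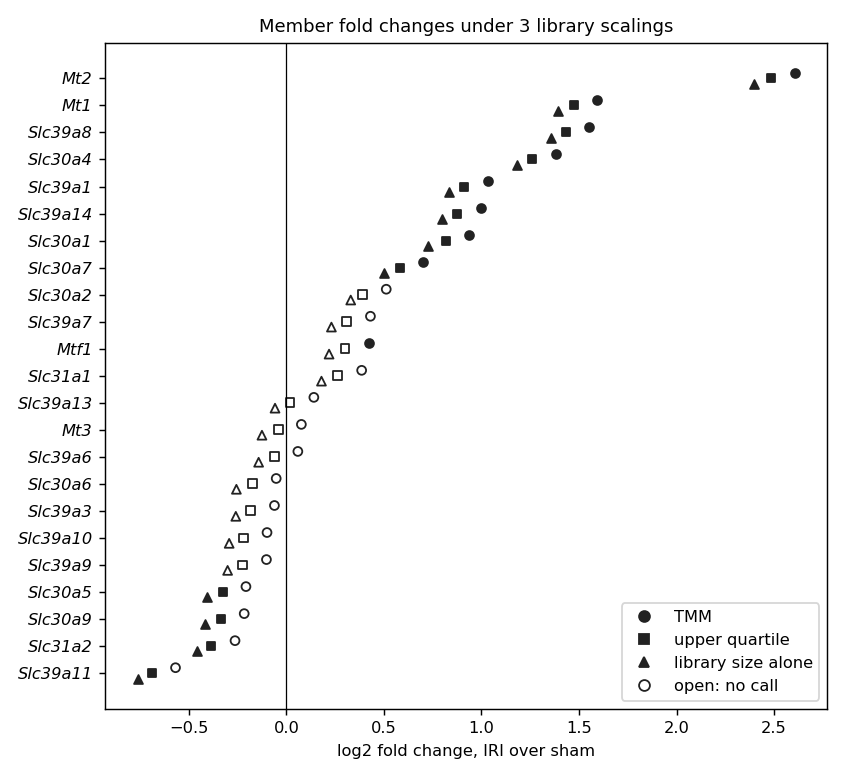
Fitted log2 fold change of IRI over sham for the same 23 members under 3 ways of scaling the libraries (TMM as tested, upper quartile, library size alone). Filled symbols are calls and open symbols have no call. The 8 uppermost members are filled under each scaling, Mtf1 only with TMM, and 4 members at the lower end are filled only with the other scalings.

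The metallothioneins Mt1 and Mt2 had the highest levels per gene length of all members in both groups, and both rose in IRI. By reads alone, Mt2 in sham (118 CPM) lay below Slc31a1 (258 CPM) and Slc30a9 (141 CPM). Levels per gene length are the authors' RPKM values (reads scaled to gene length and to an adjusted library size). Mt1 stood at 854, 1006 and 833 RPKM in the sham samples and at 2557, 2348 and 3009 RPKM in the IRI samples. The lowest IRI sample thus lay well above the highest sham sample. Mt1 rose 3.02-fold (log2 fold change 1.59 ± 0.14 SE, adjusted p = 5.12e-05, n = 3 per group by edgeR), with group means of 898 ± 94.4 and 2638 ± 338 RPKM (SD). By mean RPKM it ranked 53rd of the tested genes in sham and 16th in IRI.

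Mt2, which encodes the second widely expressed metallothionein, stood at 265, 204 and 177 RPKM in sham and at 1134, 1173 and 1522 RPKM in IRI. Again the groups did not overlap. Mt2 rose 6.08-fold (log2 fold change 2.61 ± 0.18 SE, adjusted p = 2.29e-05, n = 3 per group by edgeR), from 215 ± 45.2 to 1276 ± 213 RPKM (SD). Its rank by RPKM went from 324th to 45th, and its log2 fold change was the 360th highest of those tested. Mt1 and Mt2 together took 0.0977%, 0.103% and 0.0868% of all gene reads in sham and 0.281%, 0.248% and 0.327% in IRI.

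The balance between these neighbouring genes also differed between the groups. The Mt2 level over the Mt1 level, as a ratio of RPKM, was 0.310, 0.203 and 0.213 in sham and 0.444, 0.499 and 0.506 in IRI, with means of 0.242 ± 0.0596 and 0.483 ± 0.0342 (SD, n = 3). Sham replicate 1 had the highest sham ratio and lay below each IRI sample. The mean log2 ratio of counts was 1.02 higher in IRI (exact permutation test over samples, two-sided, p = 0.1, n = 3 per group, the smallest p this design allows). This ratio within a library does not depend on how libraries are scaled.

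**Figure D3:**
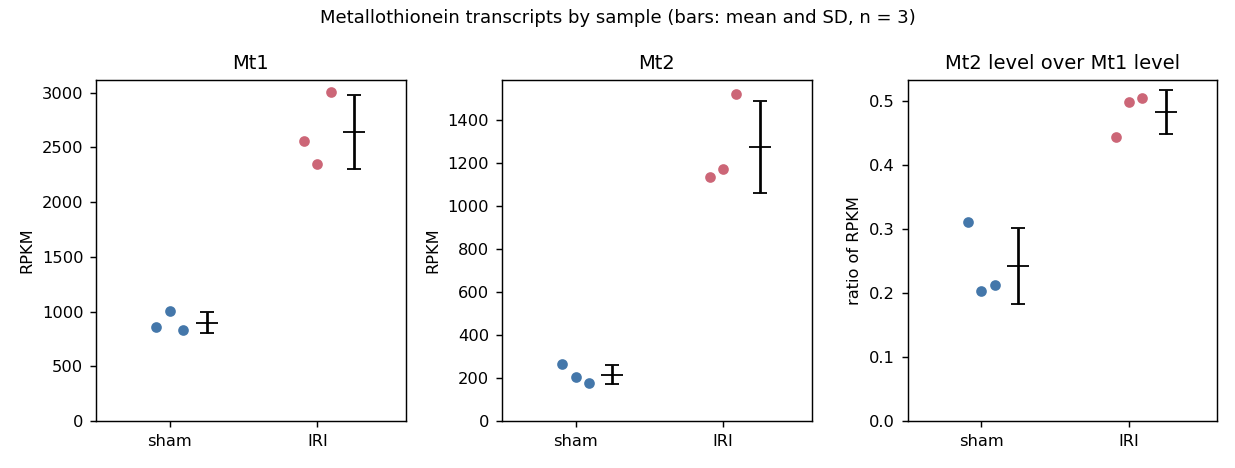
RPKM of Mt1 and of Mt2 and the ratio of Mt2 to Mt1, each point 1 sample (sham blue, IRI red), with the mean and SD of n = 3 beside them. All axes start at 0. IRI samples lie between 2348 and 3009 RPKM for Mt1 and between 1134 and 1522 RPKM for Mt2, above all sham samples.

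Mt3 and Mt4, the members of the cluster known from brain and from stratified epithelia, were barely detected. Mt3 had 4, 10 and 12 reads in sham and 3, 9 and 15 in IRI, with no call (log2 fold change 0.08 ± 0.68, edgeR adjusted p = 0.938). Mt4 had 1, 0 and 0 reads in sham and 5, 0 and 0 in IRI and was below the filter on low counts. The RefSeq gene table places Mt4, Mt3, Mt2 and Mt1 side by side on chromosome 8, so the abundant and the barely detected genes are direct neighbours.

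Mtf1, the zinc-sensing activator, was expressed at 3.29, 2.72 and 2.97 RPKM in sham and 3.89, 3.68 and 4.16 RPKM in IRI. The groups did not overlap, and the call was small (log2 fold change 0.42 ± 0.12, 1.34-fold, edgeR adjusted p = 0.0181). Unlike the calls of the other 8 members, it was lost with upper-quartile scaling (0.30, adjusted p = 0.0671), with library size alone (0.22, adjusted p = 0.203), without sham replicate 2 (0.35, adjusted p = 0.0759) and without sham replicate 3 (0.38, adjusted p = 0.0839). Mtf1 overlaps the gene 1110065P20Rik in the RefSeq table, and reads in such overlaps cannot be assigned without strand. That neighbour had a log2 fold change of -0.32 ± 0.14 (adjusted p = 0.0888). Of the other called members, Slc30a1, Slc30a4 and Slc39a8 each overlap a noncoding RNA gene there, and Slc30a7 overlaps a pseudogene and a microRNA gene.

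Among the zinc exporters, 3 of 7 tested Slc30a genes were called higher (42.9%, against 24.2% of all genes tested) and 4 had no call. Slc30a1 encodes ZnT1, the exporter of the plasma membrane and a classical MTF1 target. It was at 2.92, 1.75 and 2.14 RPKM in sham and 3.47, 4.18 and 5.04 RPKM in IRI. Sham replicate 1 came closest to the IRI samples but did not reach them. Slc30a1 rose 1.91-fold (log2 fold change 0.94 ± 0.22, edgeR adjusted p = 0.00755). Without sham replicate 1 its log2 fold change was 1.14 (adjusted p = 0.0045).

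Slc30a4, which encodes the vesicular and lysosomal transporter ZnT4, had the largest change in this family. It was at 1.02, 1.13 and 1.35 RPKM in sham and 2.53, 2.74 and 3.58 RPKM in IRI, a 2.61-fold rise (log2 fold change 1.38 ± 0.18, edgeR adjusted p = 0.00043). Slc30a7, which encodes the Golgi transporter ZnT7, was at 2.99, 2.82 and 2.68 RPKM in sham and 4.37, 4.59 and 4.50 RPKM in IRI. Its samples were tightly grouped, and it rose 1.63-fold (log2 fold change 0.70 ± 0.10, edgeR adjusted p = 0.000782).

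The 3 Slc30a genes with the highest levels did not pass the test. Slc30a6 and Slc30a5 encode ZnT6 and ZnT5, which work as a pair in the early secretory pathway. Slc30a6 was at 25.4, 23.6 and 26.2 RPKM in sham and 23.0, 26.7 and 21.0 RPKM in IRI (log2 fold change -0.05 ± 0.12, edgeR adjusted p = 0.741). Slc30a5 was at 21.5, 17.7 and 18.7 RPKM in sham and 18.0, 14.5 and 16.5 RPKM in IRI (-0.21 ± 0.12, adjusted p = 0.18). For both genes the groups overlapped. Slc30a9, linked to mitochondrial zinc, was at 13.8, 14.2 and 14.5 RPKM in sham and 11.2, 11.5 and 12.9 RPKM in IRI. Its groups did not overlap, but it did not pass the test (-0.22 ± 0.09, adjusted p = 0.0906). With library size alone, Slc30a5 stood at -0.41 (adjusted p = 0.0346) and Slc30a9 at -0.42 (adjusted p = 0.00456), both called lower.

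Slc30a2, a vesicular transporter, varied widely among the sham samples, at 0.335, 0.639 and 1.34 RPKM, and overlapped with the IRI samples at 1.34, 0.818 and 1.03 RPKM (log2 fold change 0.51 ± 0.46, edgeR adjusted p = 0.401). Slc30a3, Slc30a8 and Slc30a10, known from synaptic vesicles, insulin granules and manganese export, had at most 7 reads in the 3 libraries of a group and were not tested. Thus the Slc30a genes called higher in IRI stood at 1.16 to 2.83 RPKM in sham, and those with the highest levels, at 14.1 to 25.1 RPKM, had no call.

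Among the importers, 3 of 10 tested Slc39a genes were called higher and 7 had no call, a share close to the 24.2% called higher among all genes tested. Slc39a8 and Slc39a14 encode the related transporters ZIP8 and ZIP14, which carry iron and manganese besides zinc. Slc39a8 was at 0.146, 0.0784 and 0.136 RPKM in sham and 0.404, 0.265 and 0.365 RPKM in IRI. This was a 2.94-fold rise of a gene with few reads, 61 over the sham group and 173 over the IRI group (log2 fold change 1.55 ± 0.35, edgeR adjusted p = 0.00609). Slc39a14 was at 0.805, 0.726 and 0.694 RPKM in sham and 1.73, 1.31 and 1.29 RPKM in IRI, and rose 2.00-fold (1.00 ± 0.16, adjusted p = 0.00134). Slc39a8 lies beside Nfkb1 in the RefSeq gene table.

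Slc39a1, which encodes the plasma membrane importer ZIP1, was at 1.32, 1.74 and 1.65 RPKM in sham and 2.79, 3.49 and 3.11 RPKM in IRI. It rose 2.05-fold with no overlap between the groups (log2 fold change 1.03 ± 0.20, edgeR adjusted p = 0.00329). Its pseudogene Slc39a1-ps had 0 reads in sham and 1, 2 and 0 in IRI.

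Slc39a10, the importer that MTF1 is known to repress, showed no call in either direction. It was at 1.74, 1.72 and 1.502 RPKM in sham and 1.94, 1.48 and 1.10 RPKM in IRI. The IRI samples lay on both sides of the sham samples (log2 fold change -0.10 ± 0.21, edgeR adjusted p = 0.731). Over the 15 alternative settings its log2 value ran from -0.31 to 0.08 with no call.

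The importer genes with the highest RPKM were those of the Golgi and vesicle transporters ZIP13 and ZIP9. Slc39a13 was at 14.0, 12.5 and 12.4 RPKM in sham and 15.7, 14.2 and 12.0 RPKM in IRI (log2 fold change 0.14 ± 0.12, edgeR adjusted p = 0.363). Slc39a9 was at 7.11, 6.15 and 6.55 RPKM in sham and 6.73, 5.44 and 5.83 RPKM in IRI (-0.10 ± 0.12, adjusted p = 0.52). Both overlapped between the groups. Slc39a9 overlaps the gene Erh in the RefSeq table. Slc39a11 was at 2.72, 4.14 and 4.49 RPKM in sham and 2.67, 2.04 and 2.74 RPKM in IRI. Sham replicate 1 fell within the IRI range, and the test was not passed (-0.57 ± 0.22, adjusted p = 0.0611). Without that library Slc39a11 stood at -0.79 (adjusted p = 0.0146). Slc39a11 overlaps the coding genes Sstr2 and Cog1 in the RefSeq table.

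Slc39a3, Slc39a6 and Slc39a7, the last encoding the ER zinc release channel ZIP7, had mean levels of 1.70 to 2.39 RPKM in either group and no call (log2 fold changes -0.06 ± 0.13, 0.06 ± 0.16 and 0.43 ± 0.22, edgeR adjusted p = 0.737, 0.792 and 0.138). With library size alone Slc39a6 and Slc39a13 stood at -0.14 and -0.06, so the sign of such small values rests on the scaling. Slc39a4, the intestinal importer ZIP4, was not tested, with 5, 3 and 5 reads in sham and 19, 19 and 5 in IRI. Without IRI replicate 3, which held 5 reads, it passed the filter and was called higher (log2 2.12, edgeR adjusted p = 0.0144). It passed there only through the IRI libraries, where it was high, so this call is no support for a rise. It was also tested without sham replicate 1, 2 or 3 (adjusted p = 0.112, 0.142 and 0.0769) and without a filter (adjusted p = 0.0593), with no call in these 4 settings. Slc39a2 had 9, 3 and 2 reads in sham and 0 in each IRI library. It was below the filter, and edgeR without a filter called it lower (adjusted p = 0.0175). Slc39a5 had 3 reads in sham and 1 in IRI, and Slc39a12 had 0 reads in all libraries.

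**Figure D4:**
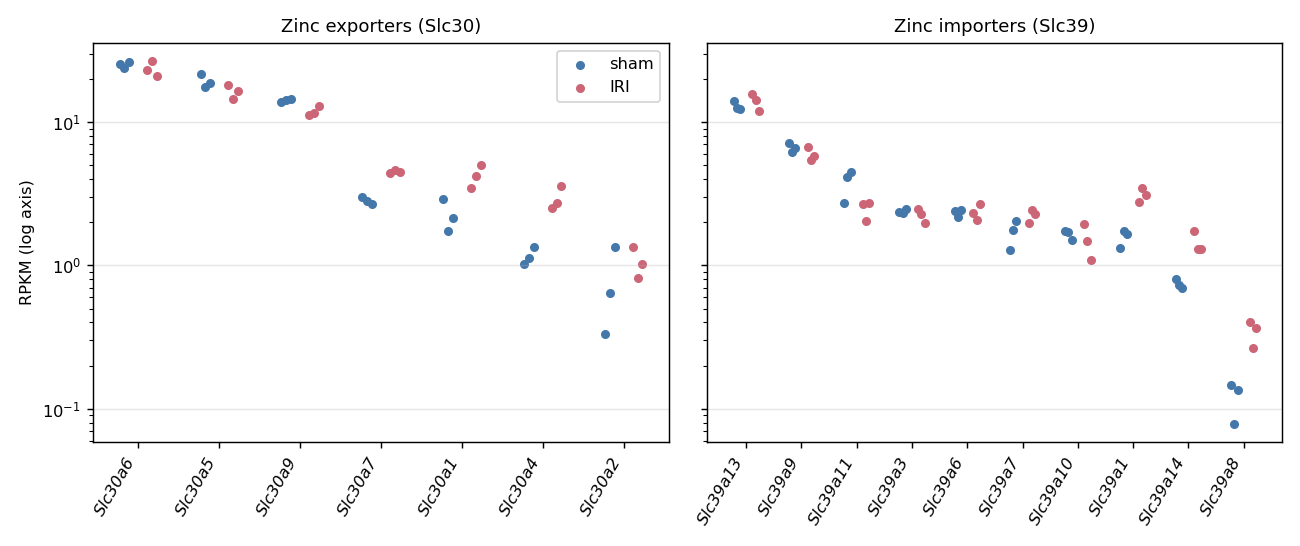
RPKM on a log axis of the 7 tested Slc30a genes and the 10 tested Slc39a genes, ordered by their mean level in sham, 3 sham (blue) and 3 IRI (red) samples each. The groups separate upward for Slc30a7, Slc30a1, Slc30a4, Slc39a1, Slc39a14 and Slc39a8, in the lower part of each panel.

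The copper importer gene Slc31a1, which encodes CTR1, had the highest RPKM of the transporters in the set. It was at 75.1, 50.8 and 57.6 RPKM in sham and 76.4, 78.4 and 79.0 RPKM in IRI. Sham replicate 1 lay close to the IRI samples, which were all higher. The difference missed the threshold (log2 fold change 0.39 ± 0.14, edgeR adjusted p = 0.053), but DESeq2 (adjusted p = 0.0362), limma-voom (adjusted p = 0.0421) and edgeR's exact test (adjusted p = 0.0436) called it. Without sham replicate 1 its log2 value was 0.53 (adjusted p = 0.00551), and with library size alone it was 0.18 (adjusted p = 0.348). Slc31a1 overlaps Fkbp15 in the RefSeq table, a gene with a log2 fold change of 0.06 ± 0.14 (adjusted p = 0.767).

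Slc31a2, which encodes CTR2, a regulator of CTR1, was at 44.0, 54.6 and 48.9 RPKM in sham and 41.9, 38.2 and 39.6 RPKM in IRI. All IRI samples were lower, without a call (log2 fold change -0.26 ± 0.10, edgeR adjusted p = 0.0662). Without sham replicate 1 it stood at -0.36 (adjusted p = 0.0251), and with library size alone at -0.46 (adjusted p = 0.0064), called lower in both.

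Other genes of copper handling were taken from a list of 22 names, of which 17 were tested. Of these, 2 were called higher and 3 lower, with a median log2 fold change of -0.143. Both shares lie below those of all genes tested, 24.2% higher and 21.2% lower. The called members with the smallest p-values belong to the STEAP family, which includes metalloreductases of iron and copper. Steap4 was at 0 in all sham libraries and had 26, 23 and 43 reads in IRI (edgeR adjusted p = 0.000544). It passed the filter on low counts through the IRI libraries alone, so the direction of its call was set by the filter. Steap1 rose from 7.15 ± 1.71 to 25.8 ± 7.51 CPM (log2 fold change 1.85 ± 0.25, adjusted p = 0.000616), and Steap2 fell from 47.9 ± 5.32 to 26.9 ± 0.822 CPM (-0.83 ± 0.12, adjusted p = 0.000551). The other called members, both lower and named after their values were seen, were Ccs, the copper chaperone of superoxide dismutase (-0.81 ± 0.16, adjusted p = 0.00344), and Cox19, which helps assemble cytochrome oxidase (-0.46 ± 0.11, adjusted p = 0.00928). Cox17, a mitochondrial copper chaperone, had the highest level among those with no call (352 ± 45.2 and 319 ± 37.0 CPM, adjusted p = 0.408). With library size alone 9 of these genes were called lower and the median was -0.344, and with upper-quartile scaling it was -0.265.

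In a list of 10 names linked to MTF1 outside the members, 6 were tested, 3 were called higher and 0 lower, with a median log2 fold change of 0.376 (all genes tested: 24.2% higher, 21.2% lower). This list too was chosen with earlier results known. No gene of this list was lower before adjustment either (p under 0.05), nor by edgeR's exact test, limma-voom or DESeq2. Csrp1, a LIM domain protein, rose from 153 ± 6.55 to 509 ± 50.2 CPM (log2 fold change 1.74 ± 0.11, edgeR adjusted p = 1.31e-05). The selenoprotein gene Sepw1 (0.51 ± 0.10, adjusted p = 0.00343) and the stress-responsive gene Ndrg1 (0.92 ± 0.25, adjusted p = 0.0214) rose as well. Gclc, the rate-limiting enzyme of glutathione synthesis, was at 437 ± 109 and 518 ± 124 CPM with no call (adjusted p = 0.388). Without IRI replicate 3, and also with library size alone, 2 of these genes were called higher. With library size alone the median was 0.175.

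In a list of 9 further zinc-related names, 6 were tested, 1 was called higher and 3 lower, with a median log2 fold change of -0.429 (all genes tested: 24.2% higher, 21.2% lower). Gpr39, a receptor that responds to extracellular zinc, rose from 11.9 ± 1.98 to 37.8 ± 2.63 CPM (log2 fold change 1.66 ± 0.15, edgeR adjusted p = 6.3e-05). The lysosomal channel Mcoln1 (-0.46 ± 0.11, adjusted p = 0.00989), the zinc metallochaperone gene Cbwd1 (-0.45 ± 0.13, adjusted p = 0.0181) and Cisd1 (-0.41 ± 0.14, adjusted p = 0.0427) fell. Cisd1 encodes an iron-sulfur protein of mitochondria rather than a zinc transporter. Without sham replicate 2, and also without sham replicate 3, 1 was called lower. The zinc transporter Tmem163 was at 54.4 ± 14.7 and 36.0 ± 12.4 CPM with no call (adjusted p = 0.159).

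Signals other than zinc are known to induce metallothionein genes, among them glucocorticoids, interleukin 6 type cytokines, oxidative stress and heat shock. Genes linked to these signals, among them ligands, receptors and kinases, were mostly higher in the same samples. Whether the signals themselves were active was not measured. Of 10 glucocorticoid-responsive genes tested 7 were called higher (median log2 fold change 1.27), of 9 interleukin 6 and STAT3 genes 8 (1.91), of 11 NRF2 and oxidative stress genes 8 (0.714) and of 9 heat shock genes 5 (0.856), against 24.2% of all genes tested. Without IRI replicate 2 the heat shock median was 0.47. The lists were chosen with earlier results of these data known, so these shares are no independent comparison. Of all genes tested, 21.2% were called lower. In these lists 0 genes were called lower, whether by edgeR's quasi-likelihood or exact test, by limma-voom or by DESeq2, but 1 oxidative stress gene was called lower when libraries were scaled by upper quartile or by size alone. Before adjustment (p under 0.05), 1 oxidative stress gene was lower and 0 genes of the other lists. Among glucocorticoid-responsive genes, Errfi1, an inhibitor of EGF receptor signalling, rose from 31.1 ± 2.69 to 493 ± 103 CPM (log2 fold change 3.98 ± 0.18, edgeR adjusted p = 5.9e-06). Klf9 (0.62 ± 0.10, adjusted p = 0.00103) and Pdk4 (1.96 ± 0.28, adjusted p = 0.00124) rose too, while the phosphatase gene Dusp1 had no call (189 ± 35.9 and 266 ± 110 CPM, adjusted p = 0.268).

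In the interleukin 6 list, the cytokine gene Lif had 3, 1 and 3 reads in sham and 240, 234 and 189 in IRI (edgeR adjusted p = 7.69e-06), and the oncostatin M receptor gene Osmr had 3, 2 and 0 reads in sham and 381, 332 and 187 in IRI (adjusted p = 1.79e-05). Both passed the filter on low counts through the IRI libraries alone, so the direction of their calls was set by the filter. The count of interleukin 6 genes called higher includes both. The kinase Jak2 rose (log2 fold change 1.91 ± 0.13, adjusted p = 1.8e-05), and the receptor gene Lifr had no call (0.24 ± 0.12, adjusted p = 0.139). Of the oxidative stress genes, the thioredoxin reductase Txnrd1 (1.61 ± 0.11, adjusted p = 1.8e-05), the sulfiredoxin Srxn1 (2.21 ± 0.16, adjusted p = 2.02e-05) and Osgin1 (2.41 ± 0.32, adjusted p = 0.000694) rose. Gclc, also on this list, had no call. Of the heat shock genes, the co-chaperone Bag3 (1.18 ± 0.14, adjusted p = 0.000227) and the chaperones Hsp90aa1 (1.01 ± 0.16, adjusted p = 0.00107) and Hspb1 (3.47 ± 0.51, adjusted p = 0.00314) rose. Hspa8 had no call (135 ± 121 and 117 ± 28.0 CPM, adjusted p = 0.829). The part of these signals in the metallothionein levels was not tested.

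Markers of other cell types were measured in the same libraries, since other cells may carry metallothionein RNA. For all genes tested, 24.2% were called higher and 21.2% lower. Of the 12 intercalated cell markers 4 were called lower. The transcription factor gene Hmx2 fell from 399 ± 176 to 51.7 ± 13.4 CPM (log2 fold change -2.95 ± 0.37, edgeR adjusted p = 0.00104), the receptor gene Insrr from 259 ± 78.9 to 84.3 ± 30.8 CPM (-1.62 ± 0.34, adjusted p = 0.00835) and Kit from 228 ± 50.8 to 131 ± 15.1 CPM (-0.80 ± 0.16, adjusted p = 0.00414). Atp6v1b1, the gene of the B1 subunit of the proton pump, fell from 1619 ± 123 to 1249 ± 168 CPM (-0.37 ± 0.13, adjusted p = 0.0427). DESeq2 and edgeR's exact test each called 1 intercalated marker higher, and limma-voom 0. Of 9 principal cell markers 8 were tested and 2 were called lower, Hsd11b2 (-1.51 ± 0.29, adjusted p = 0.00549) and Aqp3 (-0.40 ± 0.12, adjusted p = 0.0273), with sums of 12260 to 13670 CPM in sham and 6079 to 11830 in IRI. DESeq2 called 4 of them lower, edgeR's exact test 3 and limma-voom 2, and 3 were lower at an unadjusted p under 0.05. Of 15 proximal tubule markers 8 were tested, 0 were called higher and 1, Lrp2, lower. At an unadjusted p under 0.05 the counts were 1 and 1, and DESeq2 called 1 higher and 2 lower, limma-voom and edgeR's exact test each 1 and 1. The list summed to 5742 to 9221 CPM in sham and 4077 to 7190 in IRI, nearly all of it Gpx3, and the phosphate transporter Slc34a1 was at 0.978 ± 0.972 and 0.647 ± 0.690 CPM. Of 15 names of macrophage and dendritic cell markers 14 were matched, 11 were tested and 4 were called higher. Cd68 rose from 0.903 ± 0.322 to 37.7 ± 14.2 CPM (log2 fold change 5.39 ± 0.37, edgeR adjusted p = 3.88e-05) and Cd14 from 7.87 ± 2.52 to 32.7 ± 9.17 CPM (2.05 ± 0.29, adjusted p = 0.000975). Ptprc (0.77 ± 0.17, adjusted p = 0.00588) and Lyz2 (1.69 ± 0.42, adjusted p = 0.0103) rose too. The list summed to 67.3 to 264 CPM in sham and 205 to 307 in IRI, most of it Cd74, which had no call (120 ± 105 and 158 ± 64.5 CPM, adjusted p = 0.688). Of 8 endothelial markers 4 were tested and 1, Flt1, was called higher, with sums of 0.707 to 6.31 and 7.29 to 16.4 CPM. Flt1 passed the filter on low counts through the IRI libraries alone, so the direction of its call was set by the filter. The 10 neutrophil markers summed to at most 0.118 CPM in sham and 4.80 in IRI, with Camp and Elane at 0 in all libraries. All 6 thick ascending limb markers were tested, with 0 called higher and 1 lower. They summed to 1373 to 2242 CPM in sham and 1011 to 1586 in IRI. The 8 fibroblast and pericyte markers summed to 19.0 to 83.9 and 14.8 to 36.4 CPM, and the 10 lymphocyte markers to 1.14 to 52.5 and 2.83 to 29.0 CPM. Neither of these 2 lists held a call. For comparison, Mt1 stood at 778 ± 79.3 CPM in sham and 2349 ± 309 CPM in IRI. The part of these cells in the metallothionein levels was not tested.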

How the data were processed

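RNA-seq libraries of 3 sham and 3 IRI samples were analysed, grouped by their titles. Per the labels' protocols, RNA was amplified with SMARTer chemistry. Counts deposited by the authors are whole reads per gene. Per the submitters' processing notes, STAR, HTSeq and edgeR were used with genome build mm9, and no versions are given there. Counting ignored strand, per the file names. Per the file headers, the authors' RPKM values are reads scaled to gene length (given in bases in the same deposited table) and to library size. They follow from the counts and are no independent measure. The library size they imply was adjusted. It was 1.09, 1.04 and 1.05 times the reads counted in genes in the sham samples. In the IRI samples it was 0.979, 0.917 and 0.939 times these reads. Group differences in RPKM are thus not those of library size alone. Reads aligned more than once (39.9% to 42.4% of each library) were not counted, so genes with near-identical copies lose reads.

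The test was that of edgeR 4.0.16 (R 4.3.3), on the counts (filterByExpr, TMM, quasi-likelihood F test with a robust prior, group as the only term) over 13881 genes, with a threshold of 0.05 on Benjamini-Hochberg adjusted p-values. CPM used TMM-scaled library sizes. Standard errors were derived from the F statistic. The fit was also run on simulated data, in which few genes changed, as many up as down. In the real data 45.5% of genes tested were called, so that run does not bear on the choice of scaling. Of the 32 members 23 passed the filter. All of these but Mt3 exceeded its minimum, 0.442 CPM, in all 6 libraries, so none of the 23 passed through 1 group alone. Outside the members, Steap4, Lif, Osmr and Flt1 passed through the IRI libraries alone. The alternatives were other scalings, DESeq2 1.42.0, limma-voom (limma 3.58.1), edgeR's exact test, other filters, a replicate block and leaving out each library. Within each group, counts of any pair of libraries differed beyond sampling noise. The members, lists and rules were chosen with earlier results of these data known. Named are all members, and of each copper, zinc, MTF1 and signal list up to 3 called genes with the smallest p and 1 without a call. Cell type markers were named after their values were seen. Promoter and transcript sequences are of GRCm38, another build than that of the counts, and were matched by symbol only. Protein sequences were not used here.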

Additional observations from a re-analysis of the deposited data

How the results depend on the processing

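Mt1, Mt2, Slc30a1, Slc30a4, Slc30a7, Slc39a1, Slc39a8 and Slc39a14 kept their direction and call under all 15 alternatives, with log2 fold changes of 1.39 to 1.68, 2.40 to 2.75, 0.73 to 1.14, 1.18 to 1.49, 0.50 to 0.73, 0.83 to 1.12, 1.31 to 1.71 and 0.80 to 1.07. Mtf1 was called in 11 of 15. No member with a call reversed. The count of members called higher was 8 to 10 in every setting. The count called lower was 0 as tested, 4 with upper-quartile scaling, 4 with library size alone, 1 with DESeq2's Wald test, 2 without a filter on low counts, and 0 to 2 when single libraries were left out (2 without sham replicate 1: Slc31a2 and Slc39a11). The cause was not tested. Counts over all genes stayed within 1.5 times of 3364 higher and 2948 lower, and the share of calls that were higher was 53.3% as tested, 42.0% after upper-quartile scaling and 35.6% when only library size was used. The Mt2 to Mt1 log2 ratio was 0.908 to 1.22 higher in IRI when single libraries were left out. With a replicate block, 3368 genes were higher and 3095 lower, and 10 members were higher (Slc31a1 added, adjusted p = 0.0407) and 0 lower. Deviations of same-numbered samples correlated at 0.182, 0.0952 and 0.178 across genes, and every sample correlated best with its own number, a hint from the data and not from the design. The precision of Mt3, Slc39a4 and Slc39a8 is limited by 13 to 173 reads in the 3 libraries of a group.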

Other observations

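The coding genes that flank the metallothionein cluster in the RefSeq gene table were examined after the values of the cluster were seen. Bbs2, a cilium gene beside Mt4, fell from 5.32 ± 0.721 to 2.62 ± 0.302 RPKM (log2 fold change -0.98 ± 0.17, edgeR adjusted p = 0.00151, n = 3 per group). Nup93, a nuclear pore gene beside Mt1, was at 6.61 ± 1.02 and 7.63 ± 1.30 RPKM with no call (0.24 ± 0.17, adjusted p = 0.273). Nfkb1, the coding gene before Slc39a8, rose from 2.50 ± 0.206 to 5.48 ± 0.994 RPKM (1.17 ± 0.16, adjusted p = 0.000501).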
